A study of Mus musculus with 4 samples.

Results

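Respiratory complex I (NADH:ubiquinone oxidoreductase) was followed through the genes whose array name starts with Nduf, which are nuclear genes for its subunits, 1 assembly factor (Ndufaf1) and Ndufa4, a protein now assigned to cytochrome c oxidase. The array held 37 such genes on 52 probes, of 27674 genes in all. A probe was used if one channel rose well above background on 3 or more of the 4 arrays, and 28 of the 37 genes had such a probe, of 6933 genes in all. Each of the 4 arrays compared a pool of 50 mouse oocytes exposed to 20 MPa of hydrostatic pressure for 60 min at 37 °C with a pool of 50 control oocytes that had the same handling without the pressure. The oocyte is the egg cell of the ovary. Its meiotic stage, the strain and age of the mice and the time between pressure and lysis are not given in the sources used here. RNA (240 pg a pool) was amplified in 2 rounds. By the labels the treated pool carried Cy5 (red) and the control pool Cy3 (green) on every array, so dye and treatment cannot be told apart. The submitters call the 4 pairs of pools biological replicates. Each value below is the log2 ratio of treated over control intensity, so that a value below 0 is a lower signal in the treated pool.

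Complex I is the entry point of the mitochondrial respiratory chain. It takes electrons from NADH, passes them along iron-sulphur clusters in a peripheral arm that points into the matrix, hands them to ubiquinone where that arm meets the membrane, and pumps protons through a membrane arm. Core subunits carry out the chemistry, accessory subunits surround and stabilise them, and assembly factors help to build the arms without remaining in the finished enzyme. The core subunits of the membrane arm are encoded in mitochondrial DNA and carry other gene names. Oocytes hold many mitochondria and make most of their ATP by oxidising pyruvate.

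The probes behind the main values are shown by their first 30 of 60 bases, 5′ to 3′, as the array files give them, with positions in mouse build mm7. They are shown so that different probes of a gene can be told from overlapping ones. Gene annotation of mm7 was not used here, so the exon that each probe lies in is not stated. The lines give, in order, both kept probes of Ndufc1 (chr3:51530014-51530073 and chr3:51531904-51532695, minus strand), the probe of Ndufb11 (chrX:19048474-19048533, minus strand), that of Ndufs5 (chr4:123157395-123157454, minus strand), that of Ndufs3 (chr2:90745398-90745457, minus strand), both kept probes of Ndufa12 (chr10:93758942-93759001 and chr10:93780198-93780257, plus strand) and a pair of Ndufs6 probes. Capitals mark the 24 bases that this pair shares within the stretches shown.
Ndufc1, A_52_P254795: gcgaatatgagtcagtcaacacgttttgca
Ndufc1, A_52_P270888: cctcggttttcatgtggatttatctcatcc
Ndufb11, A_51_P205573: tccgctgcttgttatttacctggttcctca
Ndufs5, A_51_P214916: aggccgctgtcatgctctgttttcccctgg
Ndufs3, A_51_P395014: aagctggagacaagaagcctgaaaccaagt
Ndufa12, A_51_P458538: tggaaataaatactacgaagacaacaagca
Ndufa12, A_52_P724940: aagaagattcatgaatgggttccacctttg
Ndufs6, A_51_P375034: aactttGCCATTGATTTGATAGCACAACAG
Ndufs6, A_52_P685828: GCCATTGATTTGATAGCACAACAGcctgtg

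The first array (replicate 1) differed from the rest. Over the whole probe set, Pearson's r between its log2 ratios and those of another array was between -0.19 and -0.15, against 0.085 to 0.29 among the others. Its 99th percentile of net intensity was 2.50 times higher in the treated channel than in the control channel, against ratios of 0.24 to 0.39 on the others. Whether its dyes were exchanged was not tested. Results are therefore given without it, and the main counts also with its sign turned, a setting added once the values were known. Across the 28 Nduf genes its correlations, as labelled, were 0.17, 0.21 and 0.36, and those among the other arrays were -0.03 to 0.19. Genes are not independent replicates, and the points of a pair share their arrays. Between 7049 and 11155 spots were well above background in a treated channel and between 8309 and 10837 in a control channel, and 0 were saturated. Defining oocyte genes such as Zp3, Gdf9, Bmp15, Oosp1 and Ddx4 were well above background in both channels of every array, 10 of 15 in all, and Nlrp5 in none. Of 19 cumulus and granulosa cell markers, 7 were well above background on no array, among them Fshr, Foxl2, Amh and Star. Tnfaip6 of that list was well above background in both channels of every array. The 7 measured ones had a median ratio of -0.06 and summed net intensities of 629 to 2568 in treated and 777 to 5764 in control channels. Only 2 of 7 blood and 4 of 10 oviduct, endothelium and stroma markers were measured, with medians of -0.11 and 0.08. Of these, Hba-a1, Srgn, Acta2 and Vim were well above background in both channels of every array. The part of these cells in the Nduf values was not tested. Fewer cells of a type and less RNA per cell cannot be told apart in such pools.

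The mean ratio was below 0 for most of the measured Nduf genes, but no single gene passed the test. With limma and Benjamini-Hochberg adjustment 0 of the 28 genes reached an adjusted p of 0.05, as did 0% of all tested genes. At an unadjusted p of 0.05, 3 Nduf genes passed, all lower in treated pools (Ndufc1, Ndufb11 and Ndufs5), beside 3.42% of all tested genes in that direction and 288 genes in both. The mean was below 0 for 22 of 28 genes, or 78.6%, against 52.5% of all tested genes. It was below 0 on every array for 8, or 28.6%, against 9.61% of the 6881 genes with 4 values, and above 0 on every array for 0, against 2.88%. The 8 were Ndufc1, Ndufb11, Ndufs5, Ndufb10, Ndufs7, Ndufb7, Ndufb9 and Ndufa2. The last 5 passed the filter through the control channel only, which favours ratios below 0, and the first 3 were detected in both channels of every array. Ndufa6 and Ndufb5, whose means were below 0, also passed through the control channel only. The shares of 78.6% and 28.6% are therefore descriptions of the genes that passed. Without replicate 1, 23 of 28 means were below 0 (58.2% of all genes) and 11 genes were below 0 on all 3 arrays (21.8% of all genes). With the sign of replicate 1 turned, 20 means were below 0 (57.1% of all genes), and 3 of 28 genes, or 10.7%, were below 0 on every array, close to the 12.1% of all genes. Only 6 of the 28 genes had a mean larger in size than the SD of their 4 arrays. Past a 2-fold difference lay 2 of the 28 (Ndufc1 and Ndufb11), against 144 of the 6933 tested genes (2.08%).

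**Figure D1:**
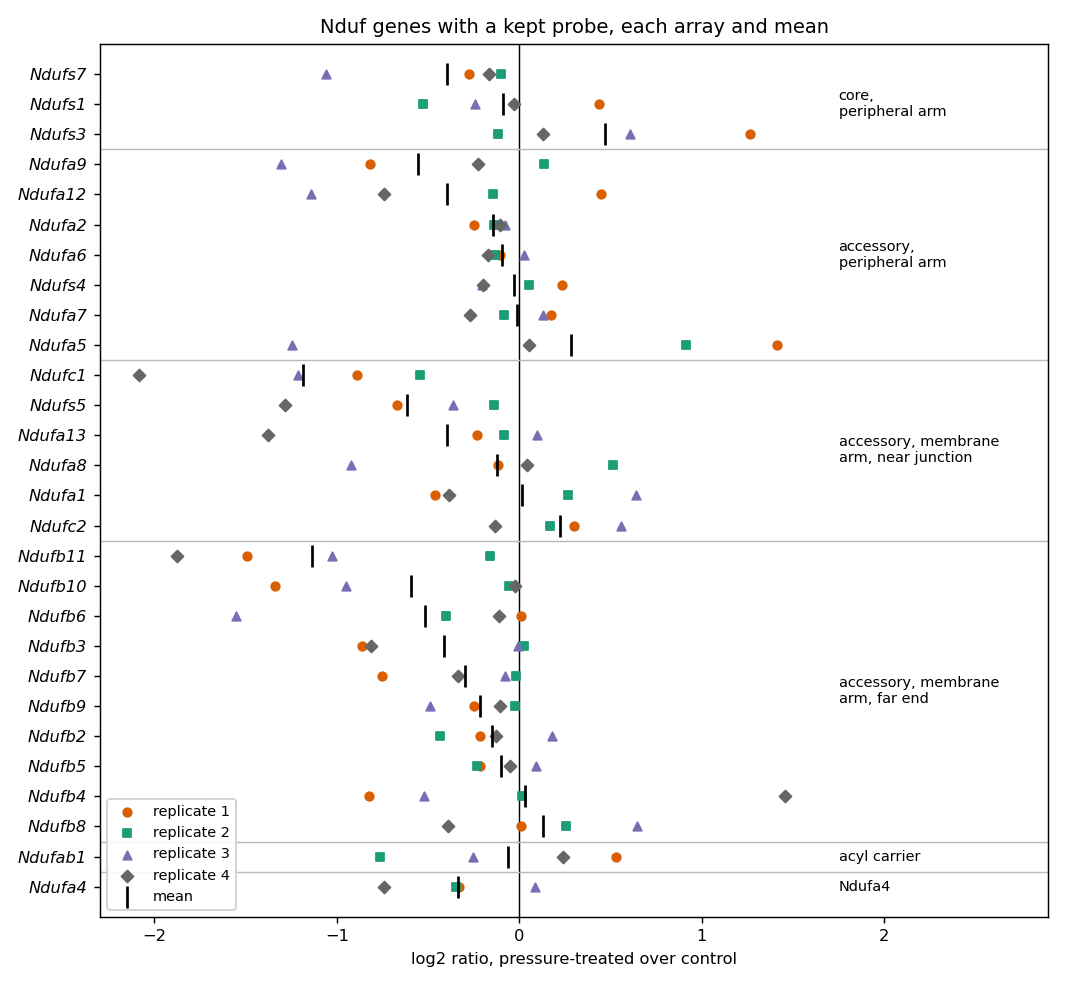
Log2 ratio of treated over control intensity (x axis) for the 28 measured Nduf genes (rows, grouped by place in the complex), with 1 mark for each array and a bar at the mean. Most bars lie left of 0, with Ndufc1 and Ndufb11 farthest, and the marks of most genes lie on both sides of 0.

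The median of the 28 genes was -0.22, -0.09, -0.23 and -0.17 on replicates 1 to 4, a mean of -0.18 ± 0.063 (SD, n = 4). Over all tested genes the median was between -0.04 and -0.003 on each array. The median of the 28 genes was thus the lower of the pair on every array, including replicate 1, and replicate 2 was nearest to 0. The median of the gene means was -0.15, against -0.02 over all genes, and -0.17 without replicate 1. The filter on dim probes bears on these counts. Of the 28 genes, 14 were well above background on fewer arrays in the treated than in the control channel and 0 on fewer in the control channel, against 31.6% and 6.39% of all tested genes. The 14 genes detected in both channels of every array had a median of -0.24 with 11 means below 0, and the other 14 had -0.13 with 11. On replicates 1 to 4 the array medians of the former were -0.22, -0.15, 0.04 and -0.39, and those of the latter -0.23, -0.04, -0.51 and -0.11. On replicate 3 the genes detected in both channels thus lay above all tested genes (-0.04). With no filter, 25 of all 37 genes had a mean below 0, beside 49.1% of all genes. The probes' GC content had a median of 45% against 41.7% for all tested genes, and its correlation with the log ratio over the 28 genes was -0.02, 0.07, 0.26 and 0.08 on replicates 1 to 4. Its part in the values was not tested.

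Core subunits of the peripheral arm were measured in 3 cases and showed no common direction. Ndufs3, the core subunit at the base of the arm near the ubiquinone site, had log2 ratios of 1.26, -0.12, 0.61 and 0.13 on replicates 1 to 4. Replicates 1 and 3 were high and the other two were near 0. The mean of 0.47 ± 0.61 (SD, n = 4) was the highest of the 28 genes and did not pass (limma's adjusted p = 0.93). It was 0.21 without replicate 1, -0.16 with that array's sign turned and 0.0046 in the authors' deposited value table, so neither its sign nor its rank holds across these settings. Ndufs7, which holds the last iron-sulphur cluster before ubiquinone, had -0.27, -0.10, -1.06 and -0.16, a mean of -0.40 ± 0.45 (SD, n = 4; limma's adjusted p = 0.93). All its arrays were below 0, but replicate 3 carried most of the mean, which was -0.18 without it. The treated channel was well above background on 1 array only and the control channel on 4. Ndufs1, the largest core subunit and the carrier of several iron-sulphur clusters, had 0.44, -0.53, -0.24 and -0.03, a mean of -0.09 ± 0.41 (SD, n = 4; limma's adjusted p = 0.97). Its arrays lay on both sides of 0, and the mean was 0.055 without replicate 2. The probes of Ndufs8, Ndufv1 and Ndufv2 did not pass the filter. Ndufv1, the subunit that binds NADH, was well above background in the control channel of 1 array, and the other two on none.

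Accessory subunits of the peripheral arm had means between -0.55 and 0.28 in 7 measured of 8 genes. Of these means, 6 were below 0 (85.7%, against 52.5% of all tested genes). Ndufa9, which stabilises the junction of the arms and binds NADPH, had -0.82, 0.14, -1.31 and -0.22, a mean of -0.55 ± 0.64 (SD, n = 4; limma's adjusted p = 0.93). Replicates 1 and 3 were low and replicate 2 was above 0, and the mean was -0.30 without replicate 3. Ndufa5, a small subunit beside Ndufs3, had 1.41, 0.91, -1.24 and 0.05, a mean of 0.28 ± 1.16 (SD, n = 4; limma's adjusted p = 0.95). This was the widest spread of the 28 genes, and without replicate 1 the mean was -0.09. Ndufa2 was below 0 on every array, at -0.25, -0.14, -0.08 and -0.11, and had the smallest SD of the 28 genes (mean -0.14 ± 0.074, n = 4; limma's adjusted p = 0.93). Its treated channel was well above background on 1 array. Ndufa6, Ndufa7 and Ndufs4 had means of -0.10, -0.01 and -0.03, and each had arrays on both sides of 0. Ndufs4 is the subunit whose loss in mice causes an encephalopathy used as a model of Leigh syndrome.

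Ndufa12, the subunit whose paralogue Ndufaf2 acts as an assembly factor, gave opposite signs from its 2 kept probes on 4 of 4 arrays. The brighter probe had 0.45, -0.15, -1.14 and -0.74, with a mean of -0.40 ± 0.70 (SD, n = 4; limma's adjusted p = 0.93). The other had -0.53, 0.06, 0.24 and 0.19, with a mean of -0.01. The probes shared at most 6 bases in a row and lay apart on chromosome 10, and on each array they differed by 0.21 to 1.38. No direction is given for this gene.

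Accessory subunits of the membrane arm near the junction held the lowest mean of the 28 genes. Ndufc1, a small subunit that crosses the membrane once, had -0.89, -0.54, -1.21 and -2.09 on replicates 1 to 4. Every array was below 0, and replicate 4 was the lowest. The mean was -1.18 ± 0.66 (SD, n = 4; limma's adjusted p = 0.93), and -1.28 without replicate 1. Its other kept probe, printed above and sharing at most 6 bases in a row with the first, had -0.24, -0.64, -0.40 and -0.82, a mean of -0.52. Both probes were thus below 0 on 4 of 4 arrays, and their sizes differed by 0.10 to 1.27. Ndufs5, a subunit on the intermembrane space side, had -0.67, -0.14, -0.37 and -1.29, a mean of -0.62 ± 0.50 (SD, n = 4; limma's adjusted p = 0.93). All arrays were below 0, with replicate 4 lowest. The mean was -0.39 without replicate 4 and -0.60 without replicate 1.

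Ndufc2, which forms a pair with Ndufc1 in the complex, had 0.30, 0.17, 0.56 and -0.13, a mean of 0.22 ± 0.29 (SD, n = 4; limma's adjusted p = 0.93). It was above 0 on 3 arrays where Ndufc1 was below, and its mean turned to -0.27 with median centring in place of loess, which moved the median of all genes to -0.34. Ndufa13, also known as a cell death regulator (GRIM-19), had a mean of -0.40 ± 0.66 (SD, n = 4) that rested on -1.37 in replicate 4. Ndufa8 had -0.12 ± 0.60 (SD, n = 4). Ndufa1 had 2 kept probes with opposite signs on 2 arrays and means of 0.01 from each. Ndufa3, Ndufa10 and Ndufa11 had no kept probe.

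**Figure D2:**
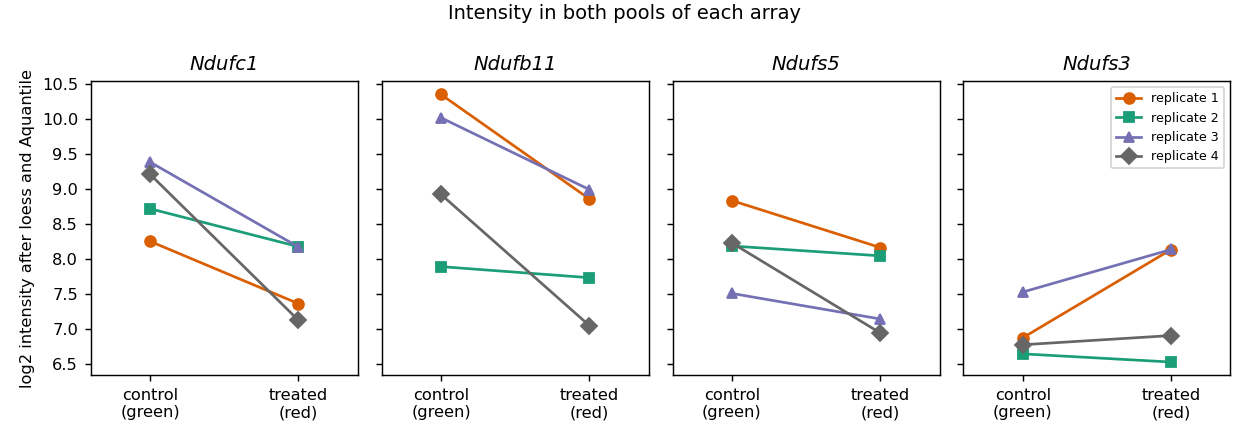
Log2 intensity in the control (green) and treated (red) channel of each array after loess within and Aquantile scaling between arrays (y axis), for Ndufc1, Ndufb11, Ndufs5 and Ndufs3, with a line joining the pools of 1 array. All 4 lines slope down for the first 3 genes, from -0.14 to -2.09 in log2 ratio, and 3 of 4 slope up for Ndufs3; levels of different genes cannot be compared.

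At the far end of the membrane arm all 10 genes were measured, and 8 of their means were below 0 (80%, against 52.5% of all tested genes). On every array 4 genes were below 0 (40%, against 9.61% of all genes). Of these 4, Ndufb10, Ndufb7 and Ndufb9 passed the filter through the control channel only, which favours ratios below 0. Ndufb11, a membrane-crossing subunit encoded on the X chromosome, had -1.49, -0.16, -1.03 and -1.88. Replicates 1, 3 and 4 were past a 2-fold difference and replicate 2 was near 0. The mean was -1.14 ± 0.74 (SD, n = 4; limma's adjusted p = 0.93), -1.02 without replicate 1 and -0.62 with array weights, which count the arrays unequally. The control intensities of Ndufb11 were 10.35, 7.89, 10.02 and 8.92 on the log2 scale and the treated ones 8.85, 7.73, 8.99 and 7.04. The ranges of the pools overlapped across arrays, while within each array the control pool was higher.

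Ndufb10, a subunit on the intermembrane space side, had -1.34, -0.06, -0.95 and -0.03, a mean of -0.59 ± 0.66 (SD, n = 4; limma's adjusted p = 0.93). Replicates 1 and 3 were low and replicates 2 and 4 near 0, and the mean was -0.34 without replicate 1 and 0.08 with its sign turned. The treated channel of Ndufb10 was well above background on 2 arrays and the control channel on 3. Ndufb6 had 0.01, -0.40, -1.55 and -0.11, a mean of -0.51 ± 0.71 (SD, n = 4; limma's adjusted p = 0.93), and -0.17 without replicate 3. Ndufb3 had -0.86, 0.02, -0.01 and -0.81, a mean of -0.41 ± 0.49 (SD, n = 4; limma's adjusted p = 0.93), and -0.26 without replicate 1. The arrays that were low thus differed between these genes: replicates 1 and 3 for Ndufb10, replicate 3 for Ndufb6, and replicates 1 and 4 for Ndufb3. Ndufb7, on the same face of the complex as Ndufb10, had 3 arrays well above background in the control channel, and its treated channel was not well above background on any. It had -0.75, -0.02, -0.08 and -0.33, a mean of -0.30 ± 0.33 (SD, n = 4; limma's adjusted p = 0.93). From the mean log2 intensities of 6.65 in control and 6.36 in treated channels it was 1.23-fold higher in control pools. The treated intensity entered as measured, although it was not well above background, so this ratio is not a lower bound. It is open to dye bias and leaves out the spread between arrays. Without replicate 1 the mean was -0.14 and the ratio 1.104-fold, and with that array's sign turned the mean was 0.08.

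The other members of this group were closer to 0 or more scattered. Ndufb9, of the LYR protein family, had -0.22 ± 0.20 (SD, n = 4) with every array below 0 and a treated channel above background on 1 array. Ndufb2, Ndufb5 and Ndufb8 had means of -0.15, -0.10 and 0.13 with arrays on both sides of 0. Ndufb4 had the second widest spread of the 28 genes, with -0.82, 0.02, -0.52 and 1.45 and a mean of 0.03.

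Ndufab1, a subunit in both arms, is the mitochondrial acyl carrier protein that also serves fatty acid synthesis. It had a mean of -0.06 ± 0.57 (SD, n = 4). Ndufa4 had -0.33, -0.35, 0.09 and -0.74, a mean of -0.33 ± 0.34 (SD, n = 4; limma's adjusted p = 0.93), with 3 arrays below 0, and -0.20 without replicate 4. The assembly factor Ndufaf1 had no kept probe. A RefSeq table placed further Nduf genes on the array under clone names, which the selection by name leaves out. Of these, the assembly factors Ndufaf2 and Ndufaf4 had -0.30 ± 0.47 and -0.27 ± 0.80 (SD, n = 4), Ndufaf7 had -0.00 ± 0.11 and the peripheral arm subunit Ndufv3 had 0.03 ± 0.18 (SD, n = 4). Each had arrays on both sides of 0. Ndufaf4 was at -1.33 on replicate 2 and at 0.084 in the mean without it.

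Ndufs6, a zinc-binding accessory subunit of the peripheral arm, passed the filter with none of its 3 probes. The probe values were 0.70, 0.97 and 0.57 on replicate 4 and between -0.12 and 0.09 on the other arrays, and the treated channel of replicate 4 was the only one well above background. The 3 probes overlap by 33 to 54 bases in a row, as the capitals above show for a pair, so their agreement is that of a shared target sequence.

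**Figure D3:**
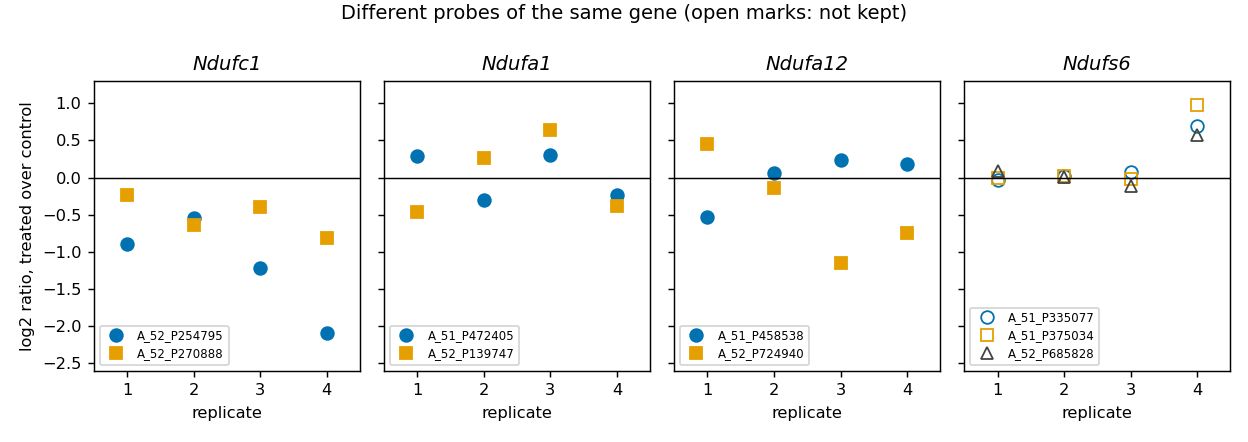
Log2 ratio of treated over control intensity (y axis) on each replicate (x axis) for different probes of Ndufc1, Ndufa1, Ndufa12 and Ndufs6, with filled marks for kept probes and open marks for probes that did not pass the filter. Both Ndufc1 probes lie below 0 on 4 of 4 arrays, the Ndufa12 probes lie on opposite sides of 0 on 4 of 4, and the Ndufs6 probes leave 0 on replicate 4.

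Other gene lists of the same pathway were set beside the Nduf genes as a description. Respiratory complexes II to V, which take the electrons onward and make ATP, had a median of -0.17 over 48 measured of 75 genes. Of their means, 34 were below 0 (70.8%, against 52.5% of all genes). On every array 11 genes were below 0 (22.9%, against 9.61% of all genes). Their array medians of -0.16, -0.10, -0.23 and -0.21 gave -0.17 ± 0.061 (SD, n = 4), and both sets had replicate 2 nearest to 0. Cox7c, a cytochrome c oxidase subunit, had -2.01, -0.07, -1.07 and -0.79, and Atp5g3, of the ATP synthase ring, had -0.56, -0.65, -0.93 and -0.21. Both were below 0 on every array, with means of -0.99 ± 0.81 and -0.59 ± 0.29 (SD, n = 4), and neither passed (limma's adjusted p = 0.93).

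Mitochondrial ribosomal proteins, which translate the mitochondrial subunits, had a median of -0.19 over 43 of 78 genes. Of their means, 32 were below 0 (74.4%, against 52.5% of all genes). Below 0 on every array were 5 (11.6%, against 9.61% of all genes). Mrpl40 and Mrps33 had -0.67 ± 0.23 and -0.75 ± 0.54 (SD, n = 4), or -0.27 and -0.46 as the mean over each gene's kept probes. Cytosolic ribosomal proteins had -0.33 over 70 of 95 genes, with 55 means below 0 and 24 of 69 below 0 on every array (34.8%), and Rps29 and Rpl39l had -0.95 ± 0.26 and -1.03 ± 0.45 (SD, n = 4). The share of means below 0 was 78.6% in that list, as in the Nduf genes, so the share is not particular to complex I. Iron-sulphur cluster assembly had a median of -0.05 over 11 of 15 genes. Its 6 means below 0 (54.5%) and 1 gene below 0 on every array (9.09%) were close to the shares of all genes (52.5% and 9.61%). Glrx5 and Hscb of that list had -0.83 ± 0.68 and 0.57 ± 0.63 (SD, n = 4). Regulators of mitochondrial transcription and biogenesis had -0.01 over 9 of 21 with 5 below 0 (55.6%) and 1 gene below 0 on every array (11.1%), also close to those shares. Polrmt, the mitochondrial RNA polymerase, and Tfb1m had -0.36 ± 0.43 and -0.21 ± 0.30 (SD, n = 4), or -0.15 and -0.11 without replicate 3. Complex I genes under other names had -0.13 over 6 of 19 with 4 below 0 (66.7%) and 0 genes below 0 on every array. No gene of these lists passed.

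**Figure D4:**
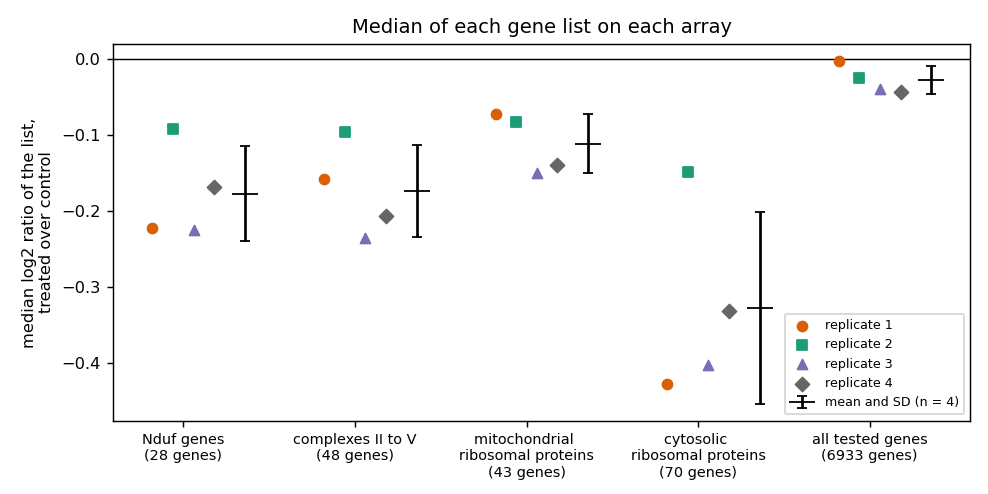
Median log2 ratio of treated over control intensity (y axis) of the Nduf genes, complexes II to V, mitochondrial and cytosolic ribosomal proteins and all tested genes (x axis), with 1 mark for each array and a bar for the mean and SD of the 4 medians. The Nduf medians lie between -0.23 and -0.09 and overlap those of complexes II to V, while those of all tested genes lie between -0.04 and -0.003.

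Promoter letters were searched because promoters of respiratory chain genes are known for sites of the factors NRF1, GABP (an ETS factor) and YY1. RefSeq windows of GRCm38.p6 (250 bases before to 50 after the start) were matched for 33 of 37 Nduf genes and 27025 genes in all, and both strands were read. The NRF1 core GCGCANGCG was found in 8 Nduf windows (24.2%, against 7.03% of all), the ETS letters CCGGAAG in 5 (15.2% against 9.93%), the YY1 letters AAGATGGC in 7 (21.2% against 3.19%) and TATAAA in 4 (12.1% against 15.7%). No match of one motif overlapped a match of another, and 13 of 33 Nduf windows held none of the 4, against 68.1% of all. Stretches of 60 bases are printed for one gene with low and one with high ratios, on the minus strand, with the match in capitals: an NRF1 core at position -98 of Ndufs5 (chr4:123718250-123718309) and ETS letters at position -27 of Ndufs3 (chr2:90904722-90904781).
Ndufs5: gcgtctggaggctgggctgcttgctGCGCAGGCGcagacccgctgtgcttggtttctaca
Ndufs3: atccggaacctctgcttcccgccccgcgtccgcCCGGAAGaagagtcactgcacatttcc
Ndufc1, Ndufa9 and Ndufs7 had the YY1 letters at positions 22, 29 and 24 after the start, and Ndufb11 had none of the 4. The genes with the lowest means thus held different letters or none, and no relation of the letters to the log ratios was tested.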

How the data were processed

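Mouse oocyte RNA was measured on 4 2-colour Agilent arrays, 1 pair of pools each, and the submitters' processing notes name Agilent Feature Extraction, version 9.5.1.1. The deposited files give mean intensity and median background intensity per spot and channel, and the authors' value table holds the scanner's log10 ratio of processed signals, used as an alternative after conversion to log2. Probe positions are in mm7 per the file headers.

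From the deposited intensity values, normexp (offset 50), loess within arrays (control spots at weight 0) and limma 3.58.1 under R 4.3.3 gave log2 ratios. Control spots were left out, which left 43379 spots on an array, and outlier-marked spots too. Of 41174 probes 8124 were kept (at least 3 of 4 arrays well above background in the same channel), and the brightest kept probe stood for a gene. Adjusted p-values (Benjamini-Hochberg, two-sided) cover all 6933 genes, and a gene was called at 0.05. The fit was tested on simulated data. Names of 43 of 52 Nduf probes were matched by accession to a RefSeq table of GRCm38.p6, used for names and promoters.

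The named genes were the 10 with the smallest p, the 3 highest means, measured core subunits and assembly factors, members whose kept probes disagree in sign or that are dark in one channel, and 2 genes of each other list. Further genes, such as Ndufs6, Ndufa12 and Ndufb9, were named after their values were seen. The members and lists were chosen with earlier results of these data known. The 11 alternatives covered background, normalization, the authors' values, filters, probes of a gene, array weights and leaving out each array, and 1 with the sign of replicate 1 turned was added after seeing the data. Each ratio is itself the paired comparison of an array's pools. Some genes are not reported here.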

Additional observations from a re-analysis of the deposited data

Results flagged for a closer look

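Of 51 sets of 4 array values examined, 3 had a single array at a distance from the rest, and chance alone gives about 1 in 20. None of the 3 was an Nduf gene. Hscb, a co-chaperone of iron-sulphur cluster transfer, was at -0.36 on replicate 2 and between 0.80 and 1.0045 on the others. Tcl1, an oocyte gene, was at 0.21 on replicate 2 and between -0.86 and -0.80 on the others. Hsd17b1, a granulosa cell enzyme of oestrogen synthesis, was at -2.24 on replicate 1 and between -0.21 and -0.04 on the others.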

How the results depend on the processing

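Under the 11 alternatives, and with the sign of replicate 1 turned (chosen after seeing the data), 0 genes passed, Nduf or other. In the 11 the lowest adjusted p from limma ran from 0.17 (without replicate 1) to 0.999, with 133 to 830 genes at an unadjusted p of 0.05; it was 0.055, with 932 genes, with the turned sign. Among Nduf genes the lowest was 0.34 without replicate 1 and 0.29 with the turned sign. The Nduf median stayed below that of all genes in each setting: it was -0.27 with no background subtraction (all genes -0.05), -0.53 with median centring (-0.34) and -0.56 in the authors' value table (-0.12), and -0.21 to -0.16 without 1 array, lowest without replicate 2. Means below 0 numbered 12 of 15 genes where both channels had to be detected on all arrays, against 47.0% of all genes. That setting had 1 more gene than in the report, since Ndufa12 then enters by its other probe. Without 1 array, means below 0 numbered 20 to 23 of 28, against 50.0% to 58.2% of all genes. Genes below 0 on every array numbered 5 of 28 with median centring (6.95% of all genes), 3 of 15 with both channels detected (6.91%) and 8 to 13 without 1 array, highest without replicate 3 (14.1%), and 3 of 28 with the sign of replicate 1 turned (12.1%). Signs turned for Ndufc2 (-0.27), Ndufa5 (-0.050), Gdf9 (-0.37) and Krt8 (-0.049) with median centring, and for Gdf9 (-0.044) and Krt8 (-0.21) in the authors' table. With the sign of replicate 1 turned, they turned for Ndufs3 (-0.16), Ndufa5 (-0.42), Ndufb10 (0.077), Ndufb3 (0.016), Ndufb7 (0.081), Cox7c (0.022), Hsd17b1 (0.48) and Nr5a2 (0.090). Leaving out 1 array gave -0.093 to 0.79 for Ndufa5, -0.27 to 0.055 for Ndufs1, -0.48 to 0.084 for Ndufaf4 and -0.056 to 0.35 for Krt8. The cause was not tested. The dim genes Ndufs7, Ndufb10 and Ndufb7 were at -3.06, -2.42 and -2.23 in the authors' table, whose processed signals carry no offset. A block for slide and scan could not be fitted, because all arrays share 1 slide and 1 scan. The number of arrays limits the precision.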

Other observations

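Among marker genes of other cell types, named by the same rule, Srgn, a proteoglycan of blood cells, had -0.56, -0.42, -0.50 and -0.61 on replicates 1 to 4, a mean of -0.52 ± 0.084 (SD, n = 4), and Hba-a1, a haemoglobin chain, had 0.30 ± 0.58. Acta2, the actin of smooth muscle, had -0.71, 1.25, 1.02 and 1.77, below 0 on replicate 1 and above 0 on the others, and Krt8, a keratin of epithelia, had 0.16 ± 0.52 (SD, n = 4). Of the granulosa markers Nr5a2 had -0.21 ± 0.33, and of the oocyte markers Gdf9, a secreted growth factor, had 0.47 ± 0.65 (SD, n = 4). None of these passed, with limma's adjusted p between 0.93 and 0.95.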
